A study of Mus musculus with 292 samples.

Results

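Mice of 1 cross were divided into 3 sets by fixed limits on the brain level of Best1 RNA. The low and high sets were compared here across all other genes. Of 292 mice, 75 (25.7%) were low, with a Best1 log10 ratio under -0.21, and 78 (26.7%) were high, with a ratio over 0.10. The other 139 mice (47.6%) lay between these limits and served as a check for dose. The groups were chosen by the measured Best1 values themselves, read from the only Best1 probe on the array, so the Best1 levels below describe how the groups were made and carry no test.

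All animals were F2 mice bred from F1 parents of 2 inbred lines, C57BL/6J and C3H/HeJ, with either line as the first-named parent, and both sexes were included. Chow with 4% fat was fed to 8 weeks of age. A Western diet of 42% fat plus 0.15% cholesterol followed for 12 weeks, and brains were taken at 20 weeks of age after 12 h without food. Low, between and high mice thus shared strain background, diet and age, and the sex, cross direction and genotype of a single mouse were not used here. RNA of each brain, in Cy3, was hybridised once against a pool of equal portions of all samples, in Cy5, and a value is the log10 ratio of a mouse to that pool.

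Best1 encodes bestrophin 1, a chloride channel that opens when calcium rises in the cell. It is best known from the basolateral membrane of the retinal pigment epithelium, where inherited mutations in people cause a form of macular dystrophy. In the brain it has been described in astrocytes, as a route of tonic GABA release. In an F2 intercross each mouse carries 0, 1 or 2 copies of a given strain's allele at any place, and genes near each other on a chromosome tend to be inherited together. Background of this kind is given for orientation, since no genotypes entered the comparison.

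Best1 lies on chromosome 19, between Fth1 and Fads3 in the order of measured genes. The start regions of Best1 and of 2 neighbours whose RNA differed between the groups, Fth1 and Fads2, are shown because Fth1 is the nearest measured gene before Best1 and Fads2 the second after it, behind Fads3. Each runs over 300 bases, from 250 before to 50 after the start, in RefSeq's sequence of build GRCm38.p6, at chr19:10001584-10001883 on the minus strand for Best1, chr19:9982396-9982695 on the plus strand for Fth1 and chr19:10101454-10101753 on the minus strand for Fads2. Fth1 has 2 listed starts, of which the later is shown. Capitals mark the GC box GGGCGG, the TATA-like run TATAA and the E-box CANNTG, each searched on both strands, with no match overlapping another.
Best1: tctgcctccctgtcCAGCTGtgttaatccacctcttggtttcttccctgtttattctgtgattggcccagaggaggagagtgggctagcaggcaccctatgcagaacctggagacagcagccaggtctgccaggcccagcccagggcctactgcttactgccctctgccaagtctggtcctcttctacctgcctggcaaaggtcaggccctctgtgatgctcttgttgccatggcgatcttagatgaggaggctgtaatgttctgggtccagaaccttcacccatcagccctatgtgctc
Fth1: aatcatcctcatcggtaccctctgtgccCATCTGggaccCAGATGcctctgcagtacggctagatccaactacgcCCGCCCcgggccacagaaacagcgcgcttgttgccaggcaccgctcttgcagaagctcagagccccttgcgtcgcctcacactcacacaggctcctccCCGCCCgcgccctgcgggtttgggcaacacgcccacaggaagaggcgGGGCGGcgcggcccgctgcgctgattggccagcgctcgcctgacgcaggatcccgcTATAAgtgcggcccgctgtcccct
Fads2: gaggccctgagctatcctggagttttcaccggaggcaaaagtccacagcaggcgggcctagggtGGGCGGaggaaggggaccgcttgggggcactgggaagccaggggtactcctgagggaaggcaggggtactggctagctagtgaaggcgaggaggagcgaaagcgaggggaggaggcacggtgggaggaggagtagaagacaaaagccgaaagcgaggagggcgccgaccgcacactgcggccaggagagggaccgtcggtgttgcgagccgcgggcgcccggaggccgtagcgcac
The Best1 window held 1 E-box and neither of the other motifs. The Fth1 window held 3 GC boxes, 1 TATAA and 2 E-boxes, and the Fads2 window held 1 GC box only. Of 32851 windows of the same length, 35.7% held a GC box, 24.9% TATAA and 72.3% an E-box, so each motif is common, and a match is no more than a run of letters.

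Best1 ran from -0.611 to -0.252 with a median of -0.426 in the low mice, from -0.0915 to 0.0907 with a median of -0.00124 in the between mice, and from 0.103 to 0.313 with a median of 0.192 in the high mice. Low mice averaged -0.424 ± 0.0792 (SD, n = 75) and high mice 0.197 ± 0.0497 (SD, n = 78), a 4.18-fold lower Best1 level in the low mice if the values are log10 of mouse over pool. The low mice stood apart by a gap of 0.160, with -0.252 just inside and -0.0915 just outside the lower limit. The upper limit cut through a far narrower gap of 0.0120, with 0.103 just inside and 0.0907 just outside.

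**Figure D1:**
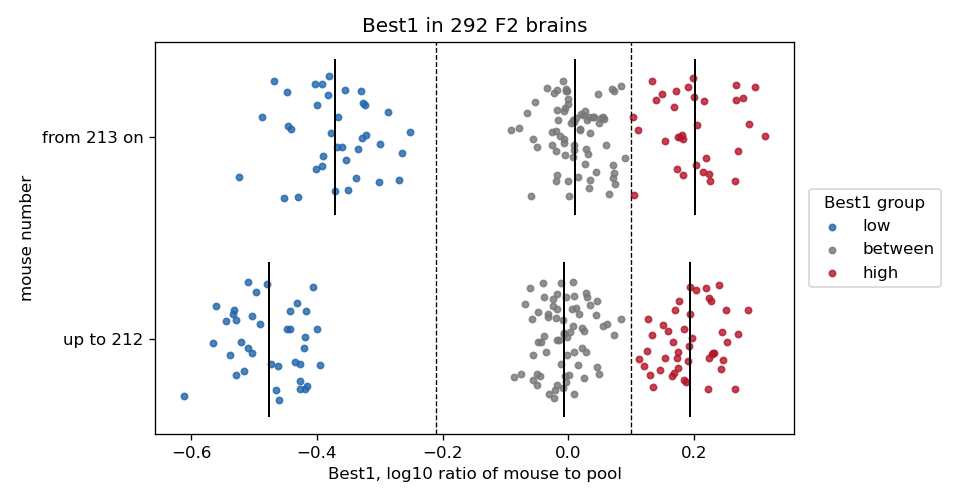
Best1 log10 ratio to the pool (x axis) of each of 292 F2 brains (points), by mouse-number block (y axis), coloured by group, with black lines at group means and dashed lines at the limits. The low mice lie apart from the others by 0.160, and their mean is -0.476 in mice numbered up to 212 and -0.371 in mice from 213.

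The groups spread over both blocks of mouse numbers. Up to number 212 there were 38 low, 68 between and 45 high mice, and from 213 there were 37, 71 and 33. The low mean was -0.476 ± 0.0547 (SD) in the first block and -0.371 ± 0.0632 in the second, while the high means were 0.193 ± 0.0448 and 0.201 ± 0.0560. The block was a covariate in each test below that held both blocks, unless stated.

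The labels give the dyes, not the direction of the ratio or the log base. Mouse over pool in base 10 was assumed, from the titles, which name the mouse versus the pool, and the direction is not settled. With a pool of equal portions, linear ratios of mouse to pool should average near 1 over the mice. That average was nearer to 1 as deposited than with the sign turned for 46.1% of the 23548 probes other than Best1, for 52.3% of the 1767 with an SD over 0.1 and for 66.8% of the 190 with an SD over 0.2. For Best1, by which the groups were chosen, it was 1.001 as deposited and 1.34 with the sign turned. Over all probes, 3.39% of array pairs correlated under -0.3 (lowest r -0.638, median 0.109), which a pool near the middle of the mice allows. With the sign turned, each higher and lower below would change places, Best1 included, with the folds kept: the 120 calls would be 47 higher and 73 lower, and the 37 on chromosome 19 would be 14 and 23. The SD over the probes of 1 array was 0.0657 in the median low and 0.0631 in the median high mouse, and array medians lay within 0.0133 of 0. A ratio to a pool holds no level of a gene, so the brain label could not be checked by marker levels. In whole brain, fewer cells of a type and less RNA per cell cannot be told apart.

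Between low and high mice, 120 of 23548 probes passed an adjusted p of 0.05 (limma, Benjamini-Hochberg over all probes but Best1), which is 0.51% of the probes. Of these, 73 (0.31%) were higher and 47 (0.2%) lower in the low mice. Chromosome 19 held 37 of them among 434 tested probes, or 8.53%, with 23 higher and 14 lower. The other chromosomes together held 21 of 12214, or 0.172%, a count that includes a Pisd-ps3 probe whose chromosome is listed as unknown. No single other chromosome exceeded 0.522%, the share on chromosome 16. Another 62 of 10900 probes (0.569%) had no matched gene and so no place. At least 1.2-fold differences were found for 27 probes, 0.115% of all, of which 10 were on chromosome 19, 1 on another chromosome and 16 without a place.

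With 1 probe for each gene, 36 of the 391 tested chromosome 19 genes differed, 22 higher and 14 lower in the low mice. Their differences lay between 1.05-fold and 1.67-fold, with a median of 1.12-fold. Groups overlapped for all 36 genes, and against the midpoint of the group medians between 9 and 62 of the 153 low and high mice stood on the other group's side. The group difference took between 8.59% and 67.3% of the variance within blocks, with a median of 21.0%, and over 50% for 5 genes.

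Tmem262, a gene for a membrane protein lying 60 measured genes before Best1, separated the groups best among these genes. Its log10 ratio ran from -0.180 to 0.0636 with a median of -0.0625 in low mice, and from -0.0399 to 0.131 with a median of 0.0521 in high mice. The groups overlapped, but only 9 of 153 mice lay on the other side of the midpoint. Tmem262 was 1.31-fold lower in the low mice (difference -0.119, SE 0.00675, adjusted p = 1.55e-34, limma). Between mice had a median of -0.00672, inside the span of the other medians.

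Rnaseh2c, which encodes a subunit of the ribonuclease that removes ribonucleotides from DNA, lies 75 genes before Best1. Low mice ran from -0.247 to 0.103 with a median of -0.123, and high mice from -0.111 to 0.222 with a median of 0.0166. Most low mice stood under most high mice, with 17 mice on the other side of the midpoint. The gene was 1.36-fold lower in the low mice (difference -0.133, SE 0.0102, adjusted p = 5.05e-23).

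Other genes in the same stretch before Best1 differed in both directions. Capn1, the protease calpain 1, was 1.23-fold lower in low mice, and Rela, the p65 subunit of NF-kappa-B, was 1.11-fold lower. Sart1, a component of the spliceosome, was 1.14-fold lower. Ehbp1l1, a protein of membrane trafficking, was 1.18-fold higher, as was Zdhhc24 of the palmitoyltransferase family, at 1.15-fold. Kcnk7, of a potassium channel family, was 1.13-fold higher and Rin1, a Ras effector that acts on Rab5 proteins, 1.12-fold higher. Adjusted p-values of these genes lay between 2.31e-19 for Ehbp1l1 and 0.00525 for Kcnk7.

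After Best1, Nmrk1 and Cbwd1 were the genes with the clearest lower values. Nmrk1 encodes nicotinamide riboside kinase, which feeds NAD synthesis, and lies 71 genes after Best1. It ran from -0.226 to 0.109 with a median of -0.0860 in low mice and from -0.110 to 0.239 with a median of 0.0968 in high mice. Low mice were mostly under high mice, with 25 beyond the midpoint, and the fold was 1.43 lower (difference -0.155, SE 0.0106, adjusted p = 4.87e-27). Cbwd1, from a family of zinc-binding GTPases and 83 genes after Best1, had a median of -0.0349 in low and 0.108 in high mice, and was 1.41-fold lower (difference -0.1502, SE 0.0116, adjusted p = 8.33e-23). Hps1, a subunit of the complex that builds lysosome-related organelles, was 1.28-fold lower and lay 169 genes after Best1.

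Mbl2 had the largest difference of all chromosome 19 genes. It encodes a mannose-binding lectin, a liver-secreted protein that starts the lectin pathway of complement, and lies 102 genes after Best1. Low mice ran from -0.419 to 0.343 with a median of 0.107, and high mice from -0.357 to 0.332 with a median of -0.171. The ranges nearly coincide while the medians are far apart, with 24 mice on the other side of the midpoint. Mbl2 was 1.67-fold higher in the low mice (difference 0.222, SE 0.0240, adjusted p = 2.26e-13).

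Papss2, a synthase of the sulfate donor PAPS, had a median of 0.104 in low mice (-0.209 to 0.243) and -0.0794 in high mice (-0.334 to 0.124). It was 1.43-fold higher in the low mice (difference 0.157, SE 0.0163, adjusted p = 2.60e-14), and 39 mice lay on the other side. Gcnt1, which makes the branch of core O-glycans, had a median of 0.0682 in low and -0.0732 in high mice, with 21 mice on the other side, and was 1.35-fold higher (adjusted p = 3.62e-22). Cpeb3, an RNA-binding protein that controls translation at synapses, was 1.31-fold higher (adjusted p = 1.49e-10). Blnk, an adaptor of B cell receptor signalling, was 1.13-fold higher, and Cyp26a1, which breaks down retinoic acid, was 1.12-fold lower.

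**Figure D2:**
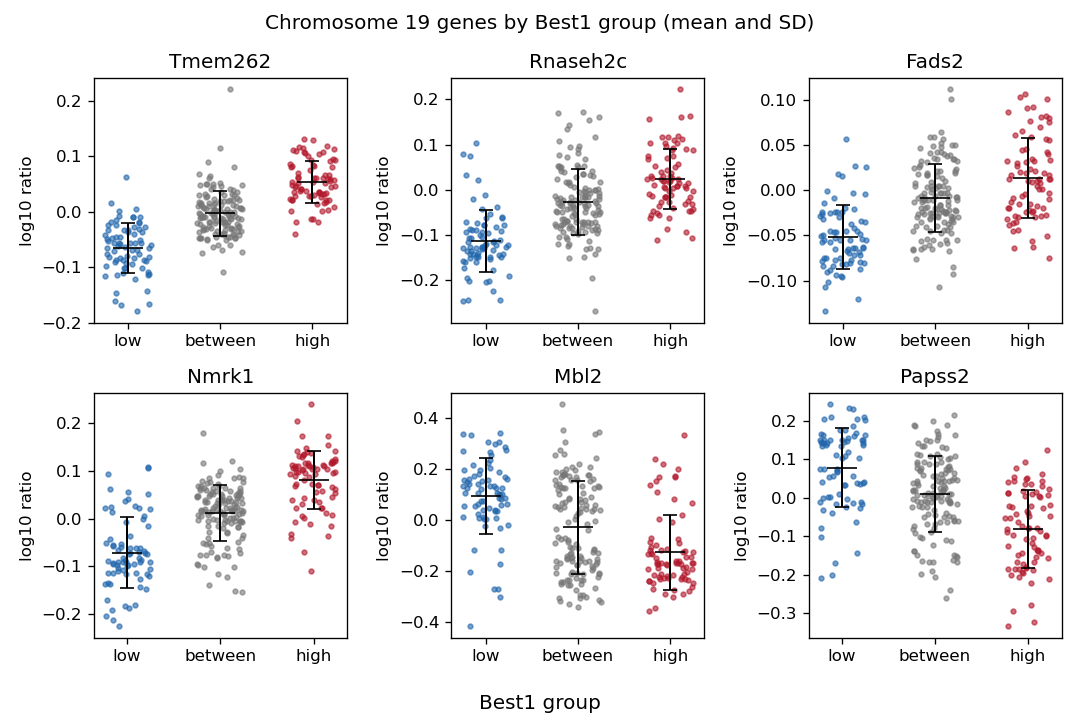
Log10 ratio to the pool (y axis) of 6 chromosome 19 genes by Best1 group (x axis), with a point for each of 75 low, 139 between and 78 high mice, and bars at mean and SD. Tmem262, Rnaseh2c, Fads2 and Nmrk1 are lower in low mice and Mbl2 and Papss2 are higher, and in each panel the mean of the between mice lies between the other means.

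Of the 20 measured genes nearest to Best1, 10 on each side, 5 differed, 1 before and 4 after it. Over the whole chromosome 36 of 391 tested genes (9.21%) differed, with 13 of 50 at 51 to 100 places before Best1. Whether nearness to Best1 matters was not tested. Fth1, the heavy chain of the iron store ferritin and the nearest before Best1, ran from -0.119 to 0.153 with a median of -0.0138 in low and from -0.203 to 0.110 with a median of -0.0514 in high mice. It was 1.11-fold higher in low mice, with broad overlap (difference 0.0466, SE 0.00894, adjusted p = 0.000245). Fads2, the desaturase that acts first in making long polyunsaturated fatty acids, was 1.16-fold lower, with a low median of -0.0556 (-0.134 to 0.0570) and a high median of 0.0115 (-0.0745 to 0.107) (difference -0.0631, SE 0.00590, adjusted p = 4.79e-17). Its group values overlapped less, with 31 mice on the other side against 50 for Fth1.

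Fads3, next to Best1 on the other side and of the same family, moved the opposite way, 1.10-fold higher (difference 0.0401, SE 0.00624, adjusted p = 9.63e-07). Fads1, the desaturase that acts later in that pathway, had a difference of -0.00901 (SE 0.00638, adjusted p = 0.553). Tkfc, a kinase of fructose breakdown, was 1.08-fold lower, and Ppp1r32 was 1.05-fold higher. The other 15 genes within 10 places, Dagla, which makes the endocannabinoid 2-arachidonoylglycerol, among them, did not pass.

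The called genes were described by stretches of gene order, with no test between stretches. Of the 50 genes 51 to 100 places before Best1, 13 passed, against 36 of 391 over the chromosome. None passed among the 40 genes 11 to 50 before it and the 34 beyond 100. After Best1, 4 of 10 passed within 10 places and 0 of 40 at 11 to 50. Further on, 6 of 50, 7 of 50 and 4 of 50 passed, and 1 of the last 57. Olfactory receptor and Ms4a genes were 21 of the 40 genes at 11 to 50 after Best1 and 14 of the 50 at 51 to 100. The 40 genes at 11 to 50 before Best1 held 0 of them. Their part in the counts was not tested. The farthest were 97 genes before and 222 genes after Best1, where Gsto1, an omega class glutathione transferase, was 1.09-fold lower. Genes higher and lower in low mice were mixed within stretches, for example 6 and 7 among the 13.

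**Figure D3:**
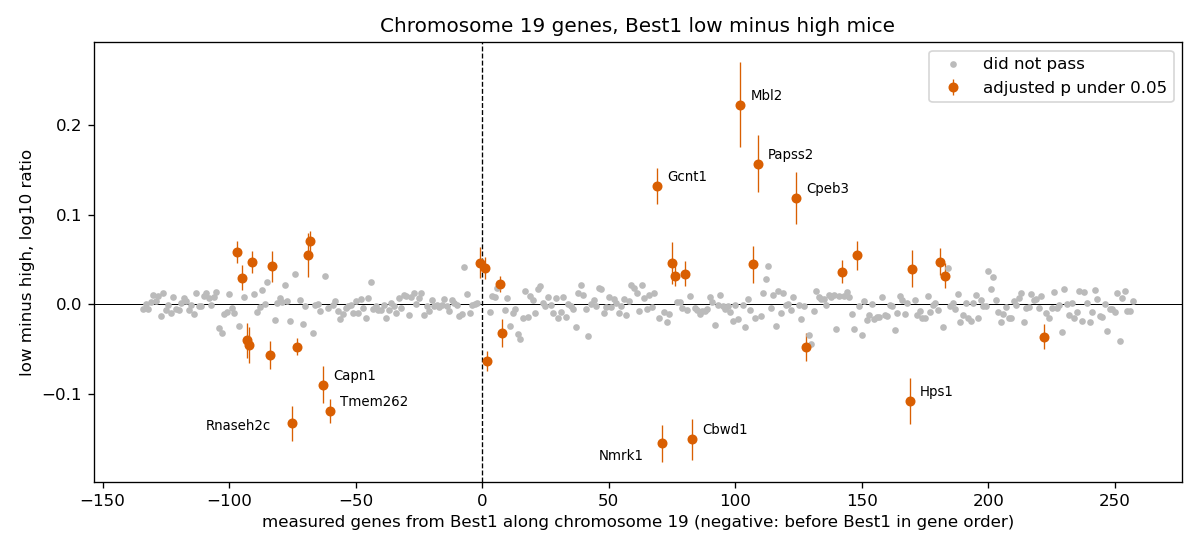
Low minus high difference in log10 ratio (y axis) for 391 chromosome 19 genes by their place from Best1 (x axis, in measured genes). Orange points have an adjusted p under 0.05, with 95% intervals, and grey points do not, and called genes lie from 97 genes before to 222 after Best1, on both sides of 0.

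On other chromosomes 19 genes passed by their probe of largest spread. The count of 21 probes there moved with the settings: it was 1 at 1.2-fold, 6 in each block, 10 without the block, 66 with array weights, 84 with stricter Best1 limits, 141 as a slope over all mice and 3071 with Papss2 as a covariate. St8sia2 on chromosome 7, which adds polysialic acid to neural adhesion molecules, had a median of 0.0129 in low mice (-0.0279 to 0.0942) and -0.0240 in high mice (-0.105 to 0.0520). It was 1.09-fold higher in the low mice (difference 0.0393, SE 0.00433, adjusted p = 6.63e-13), and 40 of the 153 mice lay on the other side. Tpte on chromosome 8, a phosphatase-like membrane protein, was 1.25-fold higher (difference 0.0979, SE 0.0157, adjusted p = 2.16e-06), the only gene with a known place off chromosome 19 that reached 1.2-fold. Tnp2 on chromosome 16, a DNA-packing protein of sperm, was just under that size (difference 0.0790, SE 0.0119, adjusted p = 3.61e-07). Msln on chromosome 17, mesothelin, was 1.17-fold lower (adjusted p = 0.000107), with a low median of -0.0571 and a high median of 0.0268.

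The further genes named by rule were Rfx5, a regulator of MHC class II genes, the vitamin transporter Slc5a6, the bone factor Sp7, C77080, Spo11, which cuts DNA in meiosis, and Emilin3. They were 1.04 to 1.06-fold higher in low mice, with adjusted p-values of 0.000629 to 0.0111. The groups overlapped broadly, with 47 (Rfx5) to 73 (Slc5a6) of 153 mice on the other side of the midpoint. Medians of Slc5a6 were -0.0210 in low and -0.0238 in high mice. Rpl19, a ribosomal protein gene on chromosome 11, is singled out after its values were seen. One of its 3 probes was 1.16-fold higher (difference 0.0636, adjusted p = 1.31e-14), while the others gave 0.00128 and -0.00189 (adjusted p = 0.916 and 0.947). Likewise 1 Mus81 probe on chromosome 19 passed (0.0357, adjusted p = 0.00431) and the other, with the larger spread, did not (0.00284, adjusted p = 0.935).

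**Figure D4:**
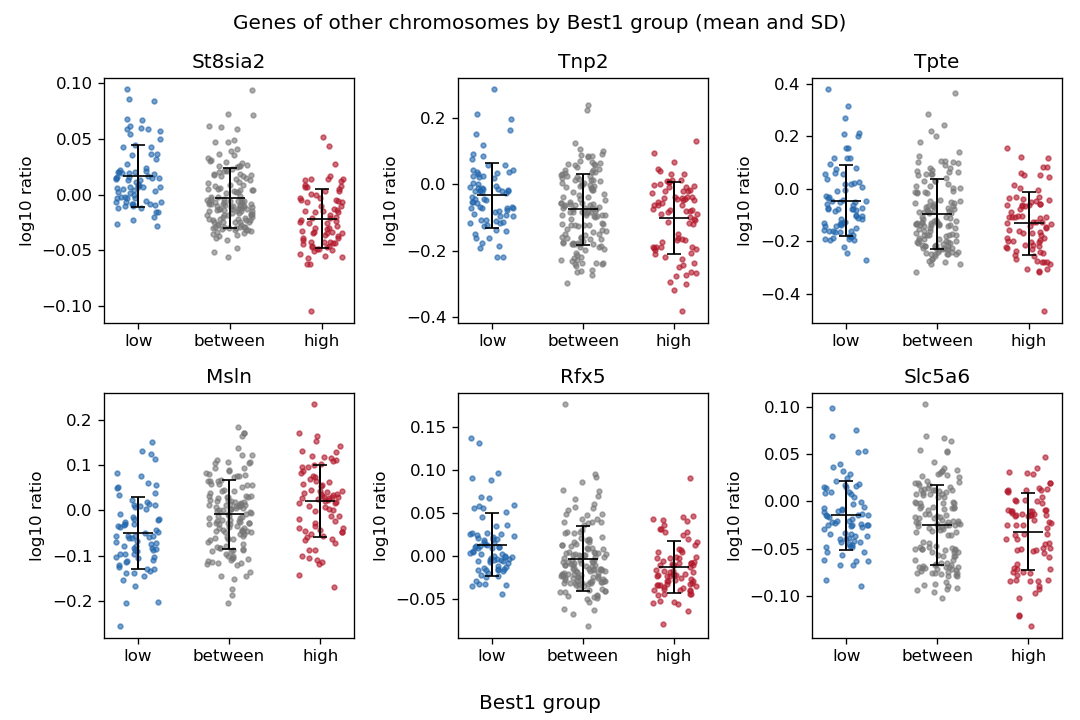
Log10 ratio to the pool (y axis) of 6 genes of other chromosomes by Best1 group (x axis), with a point for each mouse and bars at mean and SD. St8sia2, Tnp2, Tpte, Rfx5 and Slc5a6 are higher and Msln is lower in the 75 low than in the 78 high mice, with broad overlap in each panel.

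The mice numbered up to 212 and from 213 are different animals, so each block repeats the other. In the first block 62 probes passed, 0.263% of those tested, and 60 had the same sign in the second, 55 of them with an unadjusted p under 0.05 and 37 also past the adjusted threshold. All 27 of the chromosome 19 probes among them kept their sign, and 16 passed again. Of the 6 on other chromosomes 5 kept their sign and 3 passed. From the second block, where 56 probes passed (0.238%), 55 had the same sign in the first and 37 passed. Of the 23 on chromosome 19 among these, 22 kept their sign and 16 passed, and 1 had the opposite sign in the first block. All 36 chromosome 19 genes called over both blocks had 1 sign in both, and 16 passed in each. They were chosen by a fit that held both blocks, so this agreement is no repeat. For no probe did the change of the difference between blocks pass after adjustment (0 of 23548, limma interaction, 1045 at an unadjusted p under 0.05). Among the 120 called probes, 11 were at an unadjusted interaction p under 0.05, 4 of them on chromosome 19. Nor did any probe pass for the 2 spellings of the description within the first block (0 called, 872 unadjusted, 2 of the 120).

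**Figure D5:**
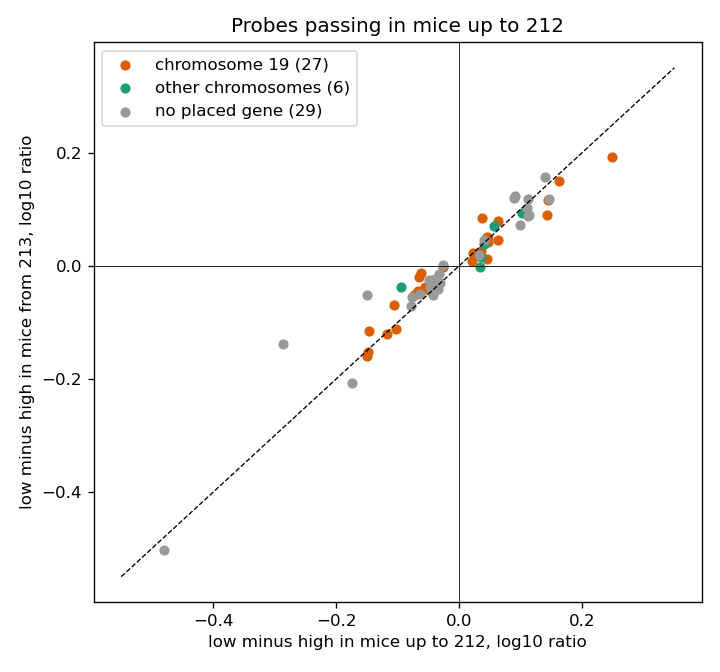
Low minus high difference in log10 ratio in mice numbered from 213 (y axis) against mice up to 212 (x axis), for the 62 probes that passed in mice up to 212. The 60 points below 0 on both axes or above 0 on both have the same sign in both blocks, and the dashed line marks equal differences.

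The between mice entered none of the low minus high differences. For all 120 called probes their mean lay between the low and the high mean, as it did for 53.0% of all tested probes. The called probes were chosen for a wide span from low to high, so these shares are not like for like. The median position was 0.576 of the way from the low to the high mean, and 0.526 for chromosome 19 probes. Best1 itself, by which the mice were chosen, stood at 0.687 on the log scale. Between against low passed for 49 of all probes (0.208%) and high against between for 33 (0.14%). No probe departed from the midpoint after adjustment (0 of 23548 called, 1094 unadjusted, limma).

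Within the between mice, the slope on Best1 passed for 2482 probes, 10.5%, and for 40 of 434 chromosome 19 probes, 9.22%. With 5 principal components of the other probes as covariates, 1139 passed (4.84%). Of the 120 probes called low against high, 7 were among the 2482, 5 of them with the same sign, which is 5.83% of the first list and 0.282% of the second. Within low mice the slope passed for 0 probes and within high mice for 58 (0.246%).

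Lists of related channels, pathways, cell types and physiological states gave no calls off chromosome 19. Of 137 list places filled by measured genes in 17 lists, 5 passed, all on chromosome 19. The shares that passed were 0.51% of all probes, 8.53% of chromosome 19 probes and 0.172% of probes on other chromosomes. A list of the other bestrophins, the anoctamins and genes of the Clca, Ttyh and Clic families had 0 of 14 called, with 10 negative and a median of -0.0130. Ano5 was nearest, with a difference of -0.0198 (adjusted p = 0.390). A list of Lrrc8 and Clcn genes with Cftr and Slc12a2 had 0 of 10. The GABA list had 1 of 9, Aldh1a1 (1.11-fold higher, adjusted p = 0.0266), a retinaldehyde dehydrogenase that also serves a side route of GABA synthesis, while Gad1 had -0.0243 (adjusted p = 0.572).

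The fatty acid list had 4 of 16 called, 3 higher and 1 lower, all among its 8 chromosome 19 members, where 36 of 391 chromosome 19 genes passed in all. Fads2 and Fads3 were already counted above as neighbours of Best1. Beside Fads2 and Fads3 these were the stearoyl-CoA desaturases Scd3, 1.12-fold higher (adjusted p = 2.83e-06), and Scd1, 1.08-fold higher (adjusted p = 0.00393). Over all tested probes the median difference was 0.000113, against 0.00288 in that list. Immediate early genes had 0 of 11 called, glucocorticoid responsive genes 0 of 9 and sex chromosome genes 0 of 6. The share over all probes was 0.51%. Of the 6 sex chromosome genes, 3 were positive and 3 negative. The Y chromosome genes Eif2s3y (0.103, SE 0.141) and Kdm5d (0.0744, SE 0.0996) were among the positive, with wide errors. These values do not settle whether the sexes were balanced between the groups.

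Of 62 places in 10 cell type marker lists, 0 passed, and list medians ran from -0.00760 to 0.156. No marker lay on chromosome 19, and on other chromosomes 0.172% of probes passed. At that share few or no calls would fall among 62 genes of any kind, so the 0 says little about cell types. Among 8 markers of retinal pigment epithelium 2 were positive and 6 negative, with a median of -0.00651. The 7 astrocyte markers had a median of -0.00428. Mean list values were -0.00985 ± 0.0311 in low and -0.00391 ± 0.0178 in high mice for the first and -0.0203 ± 0.0378 in low and -0.0139 ± 0.0332 in high mice for the second (SD). The 5 pituitary markers were all positive with a median of 0.156 (lowest adjusted p = 0.405), and their mean was -0.385 ± 0.512 in low and -0.520 ± 0.481 in high mice. The part of pituitary tissue in the results above was not tested.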

How the data were processed

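Brain RNA of 292 mice was measured on 292 arrays of 2 colours. The unit of the deposited table was read as log10 of mouse (Cy3) over pool (Cy5). How the authors analysed images, normalized and filtered is not given in the sources used here. Signal over background is unknown, so the number of arrays limits the precision. The deposited table held 23574 probes, with 0 columns left unmatched. Probes missing on over 5% of arrays were left out (25), and 252 other missing values took the probe's mean. Of 23549 probes, 12649 matched a gene of assembly GRCm38.p6, used for names, order and start sequences.

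Differences were fitted with limma 3.58.1 in R 4.3.3 (lmFit, eBayes) with the mouse-number block as covariate, Benjamini-Hochberg adjusted and called under 0.05. The fit was also run on values simulated with independent normal noise. Of 50 probes moved by 0.02 in log10, 16 were called with the right sign. It was 46 of 50 at 0.05, 48 at 0.1 and 50 at 0.2, and 11 unmoved probes were called. A difference near 0.02 that did not pass may thus have been missed, and so may a larger one in a probe of wide spread. Prl, for example, had a difference of 0.208 (SE 0.128) and did not pass. Each mouse is 1 animal on 1 array. Genes were read by the probe with the largest SD. The rule named the 10 genes on each side of Best1, the 20 called chromosome 19 genes with the largest difference, 10 of other chromosomes by adjusted p and up to 4 members of each list. The members and lists were chosen with earlier results of these data known. Lists covered 10 cell types or tissues, 2 sets of chloride channel and related genes, GABA, fatty acid synthesis, immediate early, glucocorticoid and sex chromosome genes.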

Additional observations from a re-analysis of the deposited data

How the results depend on the processing

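Each alternative was a limma fit unless stated. The count of 120 became 62 in mice up to 212 and 56 from 213, 234 with stricter Best1 limits, 361 as a slope over all mice, 230 with array weights, 27 at 1.2-fold and 55 with 1 probe per named gene, which leaves out unplaced probes. The chromosome 19 count of 37 became 23 from 213 and 10 at 1.2-fold. The count of 21 on other chromosomes became 10 without covariate, 6 in each block, 84, 141 and 66 under the stricter limits, the slope and the weights, and 1 at 1.2-fold. Chosen after seeing the data were fits within each spelling of the description up to 212 (22 and 31 probes, with 11 and 15 on chromosome 19 and 0 and 3 on others), without the 15 arrays of widest spread, and with the level of 1 chromosome 19 gene as a further covariate. With Tmem262 the total was 111, with 20 on chromosome 19 and 42 on others, and 36 of the 120 remained, 17 of them on chromosome 19. With Papss2 it was 6161, with 133 and 3071, and 96 of the 120 remained. The causes were not tested. Counts under the other alternatives stayed within 1.5 times of 120, 37 and 21. The slope within between mice gave 1139 with 5 components, also chosen after seeing the data. Of 718 values of 36 called named genes, 591 kept sign and threshold, 126 lost the threshold and 1 reversed: Kcnk7 at -0.00647 in the first spelling. Incenp, not called, was -0.0273 and called with Papss2 as covariate. Called counts of the departure of between mice were 0 in each alternative, the linear ratio among them. No paired analysis was possible because the mice carry no replicate numbers shared between groups.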

Other observations

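Among the probes without a placed gene, 1 had a larger difference than any called gene with a place. This probe, 10024412481, had a median of -0.422 in low mice (-1.17 to 0.864) and 0.113 in high mice (-0.911 to 0.962). It was 3.09-fold lower in the low mice (difference -0.490, SE 0.0637, adjusted p = 1.34e-09, limma), with 37 of 153 mice on the other side of the midpoint. Probe 10024405571 was 1.55-fold lower (difference -0.189, SE 0.0116, adjusted p = 2.54e-31), with 20 mice on the other side. Of the 62 such probes, 4 carried a platform symbol that matched no gene of the table by identifier. These were Muc19 (0.107 higher in low mice, adjusted p = 7.09e-08), PTAR1 (1.41-fold lower, adjusted p = 0.000360), RFK (0.0348, adjusted p = 0.00372) and TUBB1 (0.0203, adjusted p = 0.0255), and their chromosome was not used here. The highest PTAR1 value in high mice was 2, a limit of the values, which widens the mean difference. PTAR1 medians were -0.110 in low and 0.0136 in high mice.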
